A study of Mus musculus with 6 samples.

Results

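Autophagy delivers cytoplasm to the lysosome, and 41 mouse genes of its successive steps were followed here in primary hepatocytes exposed to the bile acid receptor agonist GW4064. The 41 were listed by gene symbol, from the kinase complex that starts autophagosome formation to the hydrolases of the lysosome. An array probe set paired with exactly 1 gene symbol was found for 40 of them, out of 22180 genes measured. The cargo receptor gene Optn was not measured here.

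The hepatocytes came from wild type adult male C57Bl/6 mice and were kept in William's medium without serum. The control group received DMSO, the solvent, and the treated group 2 µM GW4064, a synthetic agonist of FXR (the bile acid receptor, gene symbol Nr1h4), each for 4 h. There were 3 independent preparations of cells and 6 one-colour Affymetrix arrays, 3 per group. Levels are log2 intensities, and a change is the mean of the GW4064 arrays minus the mean of the DMSO arrays on that scale.

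Autophagy starts when the ULK1 kinase complex and a class III phosphatidylinositol 3-kinase complex mark a membrane, which grows, closes around its cargo and fuses with a lysosome. The ATG conjugation enzymes attach LC3 and GABARAP proteins to lipid on that membrane, and cargo receptors such as p62 bind them. In the liver, fasting raises autophagy and feeding lowers it. FXR, active after a meal, has been described in liver as a repressor of autophagy genes that opposes the fasting-active factors PPARA and CREB. TFEB is known as an activator of autophagy and lysosome genes.

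Known FXR target genes served as a check of the treatment. Abcb11, the bile salt export pump gene, was 8.47-fold higher with GW4064 (limma adjusted p = 3.7e-05) and Nr0b2, the gene of the FXR-induced repressor SHP, 5.18-fold higher (adjusted p = 1.17e-04). Of all genes tested, 11 passed an adjusted p of 0.05 in limma, which is 0.0496% of 22180. All 11 were higher with GW4064. Levels of 10 measured hepatocyte markers had a median percentile of 99.4 among all genes, and no marker of any cell type measured passed the test.

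None of the 40 autophagy and lysosome genes passed the limma test over all genes. The smallest change among the 11 genes that passed was 0.87 on the log2 scale, and the largest in size among the 40 was -0.25. A p that misses the threshold at that size does not show that a gene did not differ. The adjusted p-values ran from 0.888 to 1.00 without a block and were 0.434 or more with the replicate number as a block, where 0.0812% of all genes passed in either direction and 0.00902% downwards. At an unadjusted p under 0.05 there were 0 of the 40 in either direction, against 3.06% of all genes lower and 2.6% higher. With the block 2 were lower at an unadjusted p under 0.05, Atg5 and Gabarapl1, where 5.12% of all genes were lower and 4.01% higher.

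The changes were small and mostly below 0. They ran from -0.25 to 0.12, and 35 of the 40 lay below 0, where 55.4% of all genes did. The median change was -0.087, or 5.87% under the DMSO level, beside -0.016 over all genes. The 5 genes with a change above 0 were Atg4b, Atg4d, Gabarapl2, Sqstm1 and Sesn1. With each array centred on its median, 30 of the 40 lay below 0, beside 50.3% of all genes.

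For 38 of the 40 genes the 95% interval of the change, from limma's moderated error, lay wholly within 1.5-fold in both directions, a share of 95% beside 92.2% of all genes. The exceptions were Gabarapl1 and Bnip3, whose intervals reached a 1.67-fold and a 1.76-fold fall. With the block all 40 intervals lay within 1.5-fold, as did 95.5% of those of all genes. The plot of changes with their intervals, drawn without the block, places each of the 40 inside 2-fold. The intervals of 22017 of all 22180 genes lay inside 2-fold too.

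**Figure D1:**
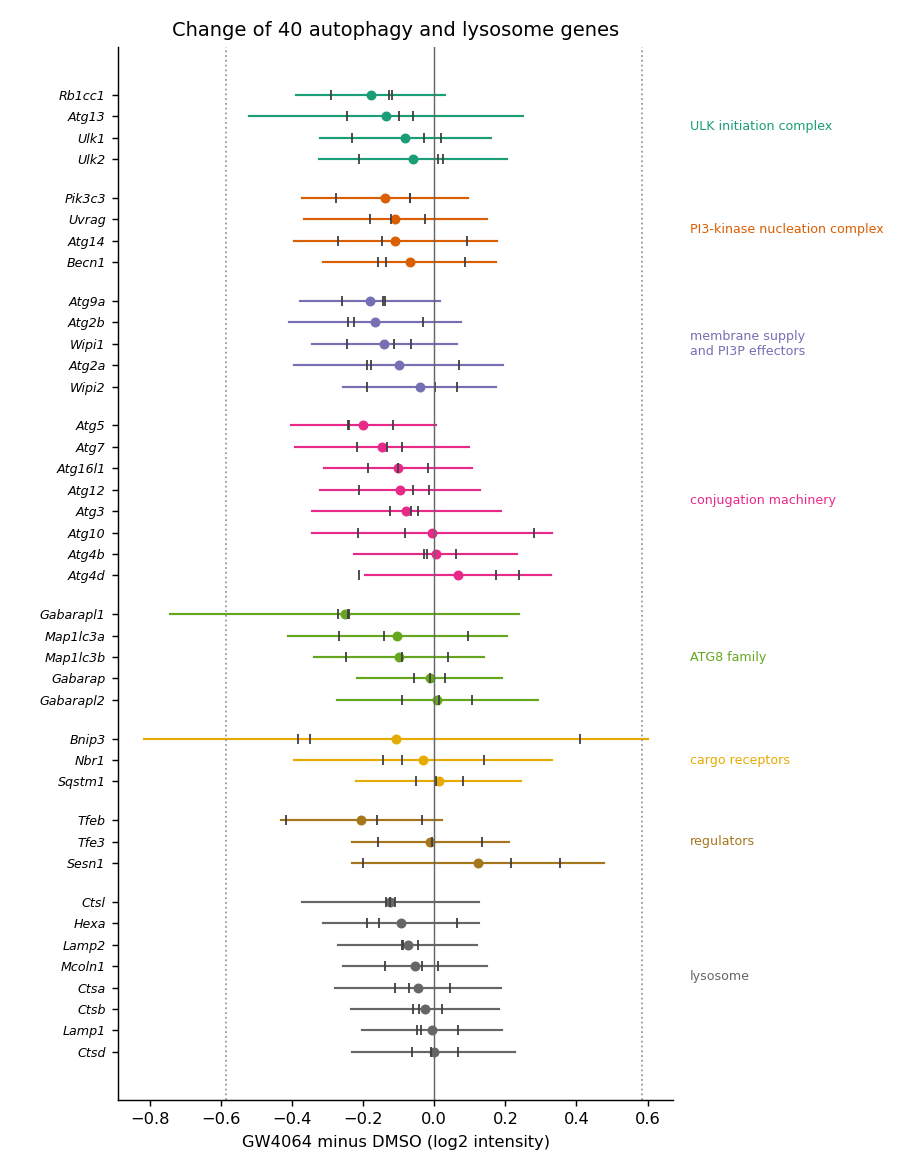
Change of the 40 measured genes by role, GW4064 minus DMSO, in log2 intensity. Points are limma estimates from 3 arrays per group, horizontal lines 95% intervals without the block, short vertical marks the 3 same-numbered pairs, and dotted lines a 1.5-fold change either way. Only the Gabarapl1 and Bnip3 intervals cross a dotted line, and 35 of the 40 points lie below 0.

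Most of these genes were well expressed, with 33 of the 40 in the top quartile of mean level over all genes. All genes of that quartile were themselves shifted downwards, with a median change of -0.033 and 64.5% of 5545 genes below 0. That median was -0.014 after quantile normalization and -0.017 with each array centred, where the median of the 40 genes was -0.072 in both. The 33 had a median of -0.093, and 31 of them lay below 0. The remaining 7 were Atg14, Atg9a, Atg4d, Atg10, Gabarapl2 and Sesn1 in the third quartile and Tfeb in the second. The 6 of the third quartile had a median change of 0.0018, beside -0.023 over the 5545 genes there. The plot of cumulative changes shows how narrow the difference within the top quartile was.

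**Figure D2:**
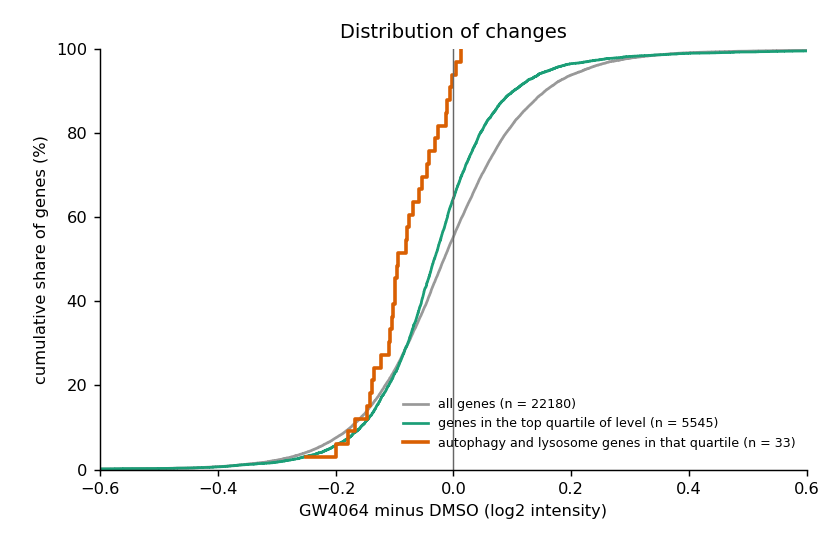
Cumulative share of genes (%) by change (GW4064 minus DMSO, log2 intensity), cut off at 0.6 either way. The 33 autophagy and lysosome genes in the top quartile of level (median -0.093) are set beside all 5545 genes of that quartile (median -0.033) and all 22180 genes (median -0.016), both of which include them.

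Same-numbered DMSO and GW4064 arrays were unequal in what they showed. The median change of the 40 genes was -0.017 in pair 1, -0.12 in pair 2 and -0.12 in pair 3, with 22, 35 and 33 genes lower. Over all genes the medians of those pairs were -0.019, -0.012 and -0.019, with 54.0%, 52.6% and 54.4% lower. Over all genes in the top quartile of level they were -0.020, -0.040 and -0.037, with 56.1%, 62.9% and 60.6% lower. Pair 1 was thus nearest 0 there too. All 3 pairs were lower for 16 of the 40 genes, or 40%, and for 18.6% of all genes and 28.7% of those in the top quartile of level. No gene of the 40 was higher in all 3 pairs, beside 12.6% of all genes and 12.4% of those in the top quartile of level. In 13 genes, LC3B and 5 of the 8 lysosome genes among them, pair 1 was higher and pairs 2 and 3 lower.

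Single arrays weighed heavily in this. Relative to each gene's mean over the 6 arrays, the median gene stood at -0.0033, 0.038 and 0.085 on DMSO arrays 1, 2 and 3, and at -0.040, -0.073 and 0.012 on the GW4064 arrays. DMSO array 3 held the highest value for 21 of the 40 genes and GW4064 array 2 the lowest for 15. The median change was -0.050 without DMSO replicate 3, with 29 genes lower, and -0.052 without GW4064 replicate 2, with 26 lower. Without pair 2 it was -0.052, with 28 lower.

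For 33 of the 40 genes (82.5%) the range of the pair means over the 3 replicate numbers exceeded the size of the change, as it did for 78.8% of all genes, and the median range was 0.19 in both. The 7 exceptions were Rb1cc1, Atg9a, Wipi1, Atg5, Atg16l1, Tfeb and Lamp2. These were also the 7 genes for which every GW4064 array lay below every DMSO array. Both measures come from the same array values, so their agreement is not a second observation. Of all genes, 6.19% showed such a lack of overlap downwards and 4.58% upwards. In the top quartile of level 434 of 5545 genes showed it downwards and 190 upwards. None of the 40 showed it upwards.

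The ULK kinase complex receives the starting signal from nutrient-sensing kinases, and its 4 genes had changes from -0.18 to -0.059. Rb1cc1 (probe set 17210912), which encodes the FIP200 scaffold of the complex, lay at 7.58, 7.58 and 7.59 on DMSO arrays 1 to 3 and at 7.46, 7.29 and 7.46 on the GW4064 arrays. The groups did not overlap, and the DMSO arrays were nearly equal, with an SD of 0.0067 (n = 3). Its level was 1.13-fold lower, with an interval from 1.31-fold lower to 1.02-fold higher (limma adjusted p = 0.932).

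Ulk1, the kinase gene itself, lay at 7.14, 7.25 and 7.15 with DMSO and at 7.16, 7.22 and 6.92 with GW4064. Only the GW4064 array of pair 3 was low, and the change was -0.081 (SE 0.11). Its paralog Ulk2 had -0.059 (SE 0.12), also through pair 3 alone, where the difference was -0.21. Atg13, the subunit that bridges kinase and scaffold, lay at 8.10, 7.97 and 8.41 with DMSO and at 8.004, 7.72 and 8.35 with GW4064. It was lower in each pair, but the replicate numbers lay further apart than the groups, and the change of -0.14 had an SE of 0.17.

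The phosphatidylinositol 3-kinase complex makes the lipid mark on which the autophagosome is built. Its 4 genes had changes from -0.14 to -0.069. Pik3c3, the catalytic subunit VPS34, lay at 6.67, 6.72 and 6.65 with DMSO and at 6.60, 6.66 and 6.38 with GW4064. The groups overlapped by GW4064 array 2 alone, and the change was -0.14 (SE 0.10, limma adjusted p = 0.977). Uvrag, a partner that directs the complex to endosomes, lay at 7.52, 7.72 and 7.83 with DMSO and at 7.49, 7.54 and 7.71 with GW4064, lower in each pair with overlapping groups. Becn1, the scaffold Beclin 1, had -0.069 (SE 0.11) and was higher in pair 3 by 0.086. Atg14, which directs the complex to the autophagosome, had -0.11 (SE 0.13) and was higher in pair 1.

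Genes that supply membrane or read the lipid mark held the lowest group median, -0.14 over 5 genes, and all 5 changes were below 0. Atg9a, a membrane-spanning lipid scramblase carried on vesicles to the growing membrane, lay at 6.34, 6.37 and 6.42 with DMSO and at 6.20, 6.23 and 6.16 with GW4064. All GW4064 arrays were below all DMSO arrays. The level was 1.13-fold lower, with an interval from 1.30-fold lower to 1.01-fold higher (limma adjusted p = 0.922).

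Wipi1, a reader of the lipid mark, lay at 6.62, 6.64 and 6.65 with DMSO and at 6.55, 6.53 and 6.41 with GW4064, again without overlap. Its change was -0.14 (SE 0.090). Wipi2, the related reader that recruits the conjugation enzymes, had -0.041 (SE 0.096) and was lower in pair 3 only. The lipid transfer protein genes Atg2a and Atg2b had -0.099 (SE 0.13) and -0.17 (SE 0.11).

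The conjugation machinery works like ubiquitin transfer, with ATG7 as the activating enzyme, ATG3 and ATG10 as the transfer enzymes and ATG12, ATG5 and ATG16L1 as the complex that completes it. Its 8 genes had a median change of -0.087. Atg5 (probe set 17233061) had the smallest p of the 40 genes. It lay at 7.51, 7.52 and 7.60 with DMSO and at 7.39, 7.27 and 7.36 with GW4064, and the groups did not overlap. The level was 1.15-fold lower, with an interval from 1.32-fold lower to 1.00-fold higher (unadjusted p = 0.0535, limma adjusted p = 0.888). With the block the unadjusted p was 0.0447 and the adjusted p 0.538.

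Atg7 lay at 8.50, 8.39 and 8.33 with DMSO and at 8.41, 8.25 and 8.11 with GW4064. It was lower in each pair, with differences of -0.091, -0.13 and -0.22, and the groups overlapped. Its change was -0.15 (SE 0.11). Atg16l1 had -0.10 (SE 0.092) without overlap between groups, and Atg12 had -0.095 (SE 0.099). Of the transfer enzyme genes, Atg3 had -0.079 (SE 0.12) and Atg10 -0.0055 (SE 0.15). The protease genes Atg4b and Atg4d, whose products trim LC3 and GABARAP and also release them from lipid, had 0.0046 (SE 0.10) and 0.066 (SE 0.12).

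LC3 and GABARAP proteins, the ATG8 family, coat the autophagosome membrane and hold cargo receptors. Their 5 genes had a median change of -0.099. Gabarapl1 (probe set 17463550) had the lowest change of the 40 genes. Its levels were 8.11, 8.56 and 8.83 with DMSO and 7.84, 8.32 and 8.58 with GW4064. Replicate number 1 was low and 3 high in both groups, so the groups overlapped widely, while each pair was lower by nearly the same step, with differences of -0.27, -0.24 and -0.24. The change was -0.25, and its SE was 0.22 in the plain fit and 0.077 with the replicate block. The unadjusted p went from 0.277 to 0.0155, and the limma adjusted p from 0.995 to 0.434. Leaving out DMSO replicate 1 put the change at -0.44, and leaving out GW4064 replicate 1 put it at -0.048.

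Map1lc3b, the gene of LC3B, lay at 9.47, 9.72 and 9.73 with DMSO and at 9.51, 9.63 and 9.49 with GW4064. Pair 1 was slightly higher and the groups overlapped, with a change of -0.099 (SE 0.11). Map1lc3a, the gene of LC3A, had -0.10 (SE 0.14) and Gabarapl2 0.0092 (SE 0.13). Gabarap is the 1 listed gene with 2 probe sets of its own. The brighter had a change of -0.013 (SE 0.090) and the other 0.35 (SE 0.25), so they disagreed in direction. These genes are paralogs, and probe sharing among them was not examined here.

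Cargo receptors tie what is to be degraded to the LC3 and GABARAP coat. Sqstm1, the gene of p62, lay at 10.99, 11.06 and 11.14 with DMSO and at 10.99, 11.01 and 11.22 with GW4064. The groups overlapped and the change was 0.012 (SE 0.10, interval from 1.16-fold lower to 1.18-fold higher). Nbr1, a receptor related to p62, lay at 7.90, 8.10 and 8.45 with DMSO and at 8.03, 7.96 and 8.36 with GW4064, and the change of -0.032 had an SE of 0.16.

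Bnip3, a hypoxia-induced receptor on mitochondria, varied most of the 40 between replicate numbers, whose means spanned 1.01. It lay at 6.43, 6.43 and 7.45 with DMSO and at 6.84, 6.08 and 7.07 with GW4064. Both arrays of replicate number 3 were high, and the treatment difference was 0.41 in pair 1, -0.35 in pair 2 and -0.38 in pair 3. The change of -0.11 (SE 0.31) turned to 0.23 without DMSO replicate 3 and to 0.18 without GW4064 replicate 2.

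Among the regulators, Tfeb had the second-lowest change of the 40 genes. It lay at 4.11, 3.89 and 3.96 with DMSO and at 3.69, 3.86 and 3.80 with GW4064, without overlap, and the largest step was in pair 1 (-0.42). The level was 1.15-fold lower, with an interval from 1.35-fold lower to 1.01-fold higher (limma adjusted p = 0.926). Its signal was at the 44.8th percentile of all genes, low on the array scale. Tfe3, a related transcription factor gene, had -0.011 (SE 0.098).

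Sesn1, whose product restrains the growth kinase mTORC1 when amino acids are scarce, had the highest change of the 40. It lay at 5.44, 5.61 and 6.04 with DMSO and at 5.66, 5.97 and 5.84 with GW4064. Pairs 1 and 2 were higher and pair 3 lower, with overlapping groups and a change of 0.12 (SE 0.16). The plot of single arrays sets these patterns side by side.

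**Figure D3:**
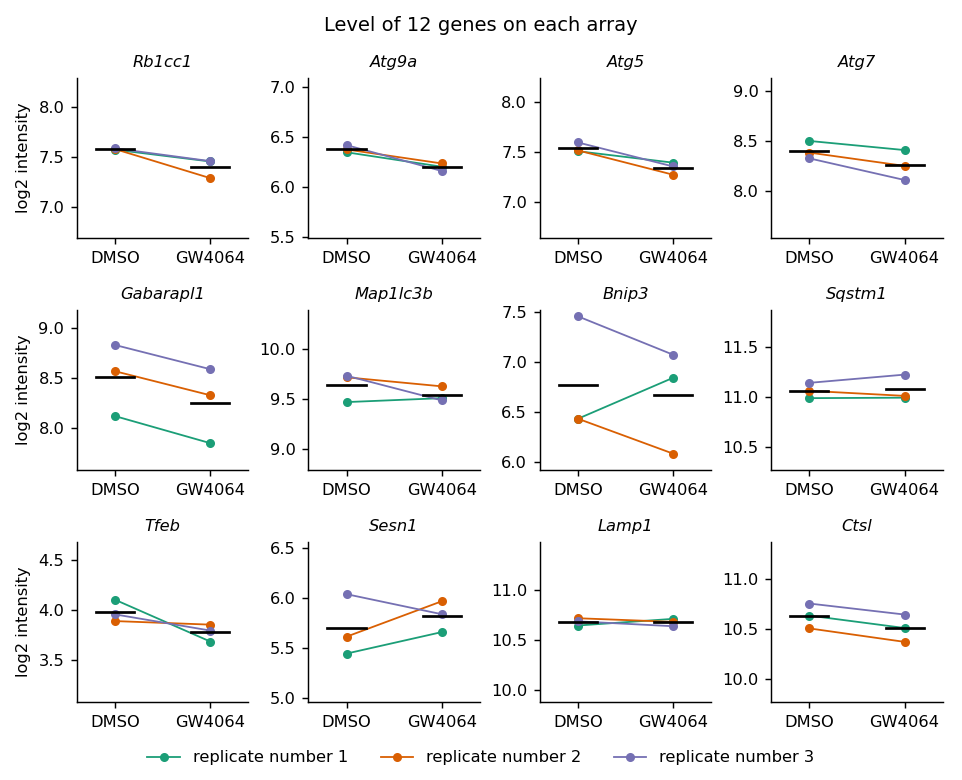
Level (log2 intensity) of 12 of the genes on each of the 6 arrays, DMSO left and GW4064 right in each panel. Coloured lines join same-numbered arrays, black bars are group means (n = 3), and every panel spans the same height on the log2 scale. Rb1cc1, Atg9a, Atg5 and Tfeb show no overlap between groups, Gabarapl1 a parallel step from 3 different starting levels, and Bnip3 lines that run both ways.

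The 8 lysosome genes had a median change of -0.050, and all 8 changes were below 0. Lamp1, the gene of a major glycoprotein of the lysosomal membrane, lay at 10.65, 10.72 and 10.69 with DMSO and at 10.72, 10.69 and 10.64 with GW4064. Its groups overlapped fully, and the change was -0.0062 with an interval from 1.15-fold lower to 1.14-fold higher. Lamp2, the membrane protein needed for fusion with autophagosomes and for chaperone-mediated autophagy, had no overlap between groups but a step of only -0.075 (SE 0.086).

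Ctsl, a cysteine protease gene, lay at 10.64, 10.51 and 10.76 with DMSO and at 10.51, 10.37 and 10.65 with GW4064. Each pair was lower by a similar step (-0.12, -0.13 and -0.11), and the change was -0.12 (SE 0.11, limma adjusted p = 0.998, 0.687 with the block). Hexa, a subunit of beta-hexosaminidase, lay at 7.96, 8.06 and 8.15 with DMSO and at 8.02, 7.87 and 7.99 with GW4064, higher in pair 1 and lower in pairs 2 and 3. The protease genes Ctsa, Ctsb and Ctsd had -0.046 (SE 0.10), -0.026 (SE 0.091) and -0.0018 (SE 0.10), and the calcium channel gene Mcoln1 -0.054 (SE 0.089).

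TFEB and TFE3 bind an E-box variant known as the CLEAR element, and the promoters of these genes were read for it. Promoter sequences from RefSeq (build GRCm38.p6, 250 bases before to 50 after a gene start) were found for 34 of the 41 genes, 40 promoters in all. Atg12, Atg16l1, Becn1, Ctsb, Map1lc3a, Pik3c3 and Rb1cc1 had none in the table used. The letters TCACGTGA, which read the same on both strands, stood in 4 of the 40 promoters (10%) and in 0.974% of all 32851. These are shown with up to 40 bases on each side and ending before the gene start, since they hold the letters that TFEB is known to bind, with the element in capitals. The fifth, from Lamp1, holds 4 copies of the plain E-box CACGTG, in capitals.
Atg3: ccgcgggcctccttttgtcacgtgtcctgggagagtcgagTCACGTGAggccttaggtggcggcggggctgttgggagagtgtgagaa
Ctsa: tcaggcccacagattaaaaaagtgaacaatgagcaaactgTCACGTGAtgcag
Ctsd: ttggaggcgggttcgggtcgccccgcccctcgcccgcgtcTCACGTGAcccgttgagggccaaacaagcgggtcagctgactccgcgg
Mcoln1: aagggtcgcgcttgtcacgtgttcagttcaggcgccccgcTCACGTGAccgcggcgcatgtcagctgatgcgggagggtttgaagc
Lamp1: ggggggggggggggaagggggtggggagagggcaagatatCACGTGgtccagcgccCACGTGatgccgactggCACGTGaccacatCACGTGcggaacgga

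The stretches lie at chr16:45158717-45158804 on the plus strand (Atg3), chr2:164833720-164833772 plus (Ctsa), chr7:142387879-142387966 minus (Ctsd), chr8:3500433-3500518 plus (Mcoln1) and chr8:13159060-13159160 plus (Lamp1). All stretches shown are upstream of the annotated gene start, with the TCACGTGA element beginning 72, 13, 99 and 46 bases before it in the order given. The Ctsa promoter holds a further TCACGTGA after the gene start, which is not shown. Atg3 and Mcoln1 hold a further CACGTG in the stretch shown. The 4 genes with the element had changes of -0.079, -0.046, -0.0018 and -0.054, and Lamp1 -0.0062.

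CACGTG alone, which lies inside every TCACGTGA, stood in 10 of the 40 promoters (25%) and in 7.15% of all. Its genes were Atg3, Atg5, Atg7, Atg14, Bnip3, Ctsa, Ctsd, Ctsl, Lamp1 and Mcoln1. The cAMP response element TGACGTCA stood in 1 of the 40, that of Atg5, and in 1.79% of all. The inverted repeat of the nuclear receptor half-site spaced by 1 base, the FXR type, was in 0 of the 40 and in 0.00913% of all. The direct repeat with the same spacing, the PPAR type, was in 0 of the 40 and in 0.0396%. Only perfect repeats were searched, on both strands. They stood in only 3 and 13 of all 32851 promoters, so their absence from the 40 says nothing about FXR or PPAR sites in these genes. A match describes letters in this window and no more.

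A further 171 genes of the same pathways were listed in 7 groups, and 160 were measured. In limma 1 passed over all genes, Nr0b2, which was higher, beside the 0.0496% called among all genes. Nr0b2 is the FXR target already used as a check of the treatment, so its call says nothing about the rest of the list. The median change of the 160 was -0.045, with 116 (72.5%) below 0, beside 55.4% of all genes. Of the 160, 122 were in the top quartile of level, where 64.5% of all genes lay below 0. The share below 0 in the 7 groups ran from 60% to 86.4%. At an unadjusted p under 0.05, 7 of the 160 were lower and 4 higher, beside 3.06% and 2.6% of all genes. With the block 11 were lower and 6 higher, beside 5.12% and 4.01% of all genes. The plot of group medians gives each group with its pairs.

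Other autophagy machinery (27 genes measured) had 22 below 0 and a median of -0.074. Trp53inp1, a stress gene whose product binds LC3, had -0.33 (SE 0.17, or 0.077 with the block), with pair differences of -0.31, -0.34 and -0.34. The protease gene Atg4c had -0.18 (SE 0.10). Other cargo and mitophagy receptors (12 measured, 8 below 0) had a median of -0.029, with the ferritin receptor gene Ncoa4 at -0.12 (SE 0.098) and the mitophagy receptor gene Fundc1 at 0.10 (SE 0.12).

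Vacuolar ATPase genes, whose pump acidifies the lysosome, had 11 of 15 below 0 and a median of -0.015. Atp6v1f had 0.33 (SE 0.20, or 0.084 with the block) and Atp6ap2 -0.11 (SE 0.094, or 0.089 with the block). Other lysosomal enzymes had 24 of 35 below 0 and a median of -0.045. Ctsf, a cysteine protease gene, went from 5.08 ± 0.044 to 4.71 ± 0.058 (mean ± SD, n = 3 arrays each), 1.29-fold lower in level without overlap between groups, and did not pass over all genes (limma adjusted p = 0.534, 0.299 with the block). Naglu, a heparan sulfate hydrolase gene, had -0.20 (SE 0.093). Lysosomal membrane and sorting genes had 19 of 22 below 0 and a median of -0.069, with the chloride transporter gene Clcn7 at -0.14 (SE 0.092) and the cystine exporter gene Ctns at 0.14 (SE 0.10).

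The mTORC1, AMPK and amino acid sensing genes ran from -0.58 (Ddit4) to 0.44 (Rragd), with 21 of 35 below 0. Ddit4 had an SE of 0.26, or 0.092 with the block, and passed in neither fit (limma adjusted p = 0.893 and 0.173). Rictor, the scaffold of mTORC2, went from 7.42 ± 0.14 to 6.99 ± 0.078, with pair differences of -0.39, -0.39 and -0.50. Rragd, a Rag GTPase gene and known TFEB target, went from 5.92 ± 0.081 to 6.36 ± 0.24, higher in each pair. Neither passed over all genes (limma adjusted p = 0.548 and 0.689). At an unadjusted p under 0.05 this list also held Lamtor5 (0.24, SE 0.094), Prkab1 (0.24, SE 0.10) and Deptor (-0.21, SE 0.090). None of them passed over all genes (limma adjusted p = 0.858, 0.874 and 0.875).

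Transcriptional regulators of autophagy had 11 of 14 below 0 and a median of -0.074. Nr0b2 went from 4.51 ± 0.060 to 6.89 ± 0.22 and rose. Nr1h4, the FXR gene, went from 7.77 ± 0.039 to 7.05 ± 0.099 with a limma adjusted p of 0.0535, which is 0.0434 without genes under the median of level and 0.0171 with a trended and robust variance. Its change was -0.72 (SE 0.094). The list's other genes at an unadjusted p under 0.05 were Ppara (-0.48, SE 0.12), Foxo1 (-0.30, SE 0.10) and Mitf (-0.27, SE 0.12). None of these 3 passed over all genes (limma adjusted p = 0.601, 0.797 and 0.875).

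**Figure D4:**
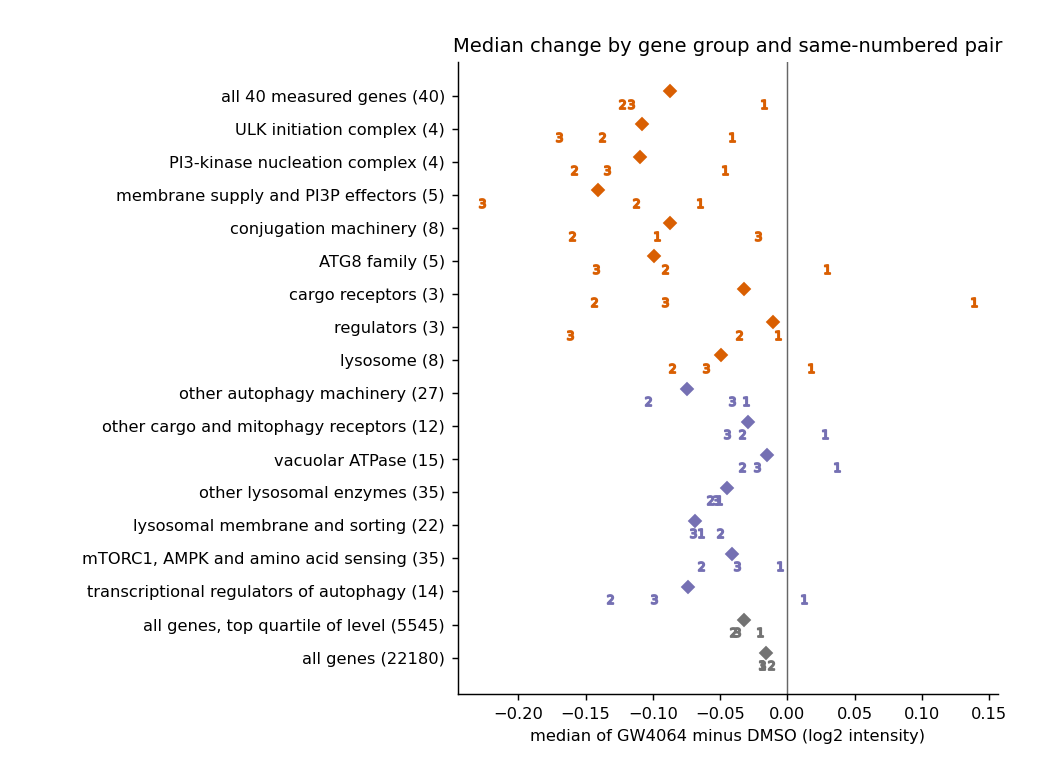
Median change (GW4064 minus DMSO, log2 intensity) of each gene group, with the number of genes measured in parentheses. Diamonds are medians over all arrays and the digits 1 to 3 the medians in same-numbered pairs. The listed autophagy and lysosome groups are orange, the further pathway groups purple and all genes grey. Pair 1 lies nearer 0 than pairs 2 and 3 for the 40 listed genes and for all genes in the top quartile of level.

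Markers of other cell types were measured because macrophages are rich in lysosomes. In bulk arrays, fewer cells of a type and less RNA per cell cannot be told apart. Of 8 measured Kupffer cell markers 5 were lower, none passed, and their mean level ran from 4.05 to 4.21 on the DMSO arrays and from 3.93 to 4.18 on the GW4064 arrays. The highest array was DMSO 3 and the lowest GW4064 2, an order set by Cd68 alone, which lay at 9.63, 8.53 and 10.02 with DMSO and at 9.86, 8.46 and 9.93 with GW4064. Over the other 7 markers, a split made after the values were seen, DMSO 2 was highest (3.50) and GW4064 1 lowest (3.20). Hepatocyte markers were lower in 8 of 10, with a median change of -0.091, close to the -0.087 of the 40 genes. Of these 10, 9 were in the top quartile of level, where 64.5% of all genes lay below 0. One of the 2 higher markers, Hnf4a, had the largest change of the 10 in size, 0.55 (SE 0.12). The mean level of the hepatocyte markers ran from 10.12 to 10.24 on the DMSO arrays, with DMSO 3 highest, and from 10.07 to 10.19 on the GW4064 arrays. Sinusoidal endothelial markers were lower in 3 of 7, with 4.48 to 4.87 and 4.54 to 4.89. Stellate cell, cholangiocyte and leukocyte markers were lower in 1 of 7, 1 of 5 and 3 of 6. The part of these markers in the result was not tested.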

How the data were processed

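RNA from 6 cultures was measured on Affymetrix MoGene-2_0-st arrays, per the labels. Each deposited value is the log2 intensity of a probe set, which the authors obtained by RMA. The submitters' processing notes list Partek too, without its role. The log base is not stated and was taken from the range of 0.94 to 13.1. Arrays limit precision by their number. Of 41345 probe sets, 23521 have 1 gene symbol in the platform annotation. For a gene with several, the one with the highest mean was kept, leaving 22180 genes.

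Groups and replicate numbers came from titles. GW4064 and DMSO were compared with limma 3.58.1 (lmFit, eBayes) in R 4.3.3, without block or filter, with two-sided p-values adjusted by Benjamini-Hochberg over all genes. SEs are from this fit unless the block is named. No list was tested. Exact permutation of 3 against 3 arrays cannot go below 0.1. The fits were tested on simulated data.

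Deviations of same-numbered arrays from their group means correlated at 0.26, 0.34 and 0.45, above the set 0.1, so the numbers were taken to pair the arrays. The design text names 3 preparations, and no label ties a number to one. Nothing says that same-group arrays came from separate animals, so p-values measure the spread between these arrays.

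The genes and lists were chosen with earlier results of these data known. Per-array values are given for 10 genes chosen by name (Ulk1, Map1lc3b, Atg5, Atg7, Sqstm1, Bnip3, Tfeb, Sesn1, Lamp1, Ctsl) and the 2 genes of each role with the smallest p, and for each further list the 2 with the smallest p are named. Ddit4, Lamtor5, Prkab1, Deptor, Ppara, Foxo1, Mitf and the marker Hnf4a were named after their values were seen. Alternatives were the block, normalization, filters on dim genes, the probe set kept, the variance model and arrays left out. Protein sequences were not used here.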

Additional observations from a re-analysis of the deposited data

How the results depend on the processing

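Under all 17 alternatives, 0 of the listed genes passed over all genes in limma, the block included. All 40 were tested in each, except that Tfeb was not among the 39 left without genes under the median of level. The median change of the 40 genes stayed below 0, from -0.10 to -0.050 with arrays or pairs left out. With an array or pair left out, group medians ran from -0.17 to 0.016 for the ATG8 family, from -0.16 to 0.12 for cargo receptors, from -0.083 to 0.051 for regulators and from -0.17 to -0.055 for the phosphatidylinositol 3-kinase complex. All but the last of these crossed 0. The other 4 stayed below 0, from -0.082 to -0.013 for lysosome, -0.14 to -0.035 for conjugation machinery, -0.18 to -0.089 for membrane supply and -0.14 to -0.089 for the ULK complex. The replicate block changed no call among the listed or the further genes. In the 7 further groups, 2 genes passed in place of 1 without genes under the median of level and with a trended and robust variance, the second being Nr1h4.

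The sign of the change held under every alternative in which the gene was tested for 19 genes. It turned for 21 when arrays or pairs were left out, 5 of them also with all arrays kept. The fits with arrays left out had no block. Leaving out 1 array splits a same-numbered pair, so differences in level between replicate numbers enter the change. Atg13, lower in each of the 3 pairs, turned only with 1 array of a pair left out. With arrays left out the changes ran from -0.17 to 0.14 for Atg10, -0.30 to 0.015 for Atg13, -0.22 to 0.011 for Atg2a, -0.040 to 0.062 for Atg4b, -0.023 to 0.21 for Atg4d, -0.15 to 0.0077 for Becn1 and -0.37 to 0.23 for Bnip3. They ran from -0.093 to 0.015 for Ctsa, -0.052 to 0.012 for Ctsb, -0.050 to 0.062 for Ctsd, -0.044 to 0.017 for Gabarap, -0.083 to 0.099 for Gabarapl2, -0.043 to 0.015 for Lamp1, -0.21 to 0.036 for Map1lc3a and -0.16 to 0.12 for Nbr1. For Sesn1 the range was -0.0044 to 0.29, for Sqstm1 -0.062 to 0.054, for Tfe3 -0.083 to 0.064, for Ulk1 -0.14 to 0.0096, for Ulk2 -0.12 to 0.054 and for Wipi2 -0.094 to 0.033. Centring each array turned Atg10 (0.0096), Ctsd (0.013), Gabarap (0.0018), Lamp1 (0.0089) and Tfe3 (0.0046), and quantile normalization turned Ctsd (0.0053) and Tfe3 (0.017). The mean of its probe sets put Gabarap at 0.17 and the dimmer one at 0.35. The cause of these turns was not tested. Among all genes, 10 to 18 passed with all arrays except 9 with the filter at the 25th percentile, and 2 to 5 with arrays left out, against 11.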
